A study of Mus musculus with 2 samples.

Results

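Gja1, Gjb2, Gjb6 and Gjc1 encode connexins, the channel proteins of gap junctions, and their counts were examined in 2 single cell libraries of the mouse mandible. The 4 genes were chosen as the connexins of interest and found by symbol, with the same Ensembl identifiers in both count tables, among 27998 genes at E12.0 and 31053 at E9.5. Connexin subunits assemble into a hemichannel in the plasma membrane. It docks with a hemichannel of the neighbouring cell, so that ions and small metabolites pass directly between the cells. Developing epithelia usually make several connexins at once. Gja1 is the most widely used of them in embryonic tissues, and Gjb2 and Gjb6 form mixed channels in the cochlea and the skin. Gjc1 is best known from the early heart and smooth muscle.

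The E12.0 library came from the mandibular epithelium of 6 pooled embryos of 1 litter with the genotype K14Cre;R26mT/mG. In them a keratin 14 promoter drives Cre, the reporter turns recombined cells GFP-positive, and only GFP-positive cells were sorted. The E9.5 library came from whole mandibular arches, unsorted, of 8 pooled littermates that the labels give the same genotype. Neither stage was treated, and there was 1 library per stage, so no difference has a replicate check and no test between groups was made. Cells are not replicates, embryos within a pool cannot be told apart, and every interval covers counting error only.

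Levels are given as CPM: unique molecular identifiers (UMIs) were added up across the cells of a group and divided by the total of the group in units of 1000000. The exact 95% Poisson interval stands in brackets. The library reads the 3′ ends of transcripts, so CPM is not a level per length and the 4 genes were not ranked against each other. After filtering, 11355 cells with 77936364 UMIs (median 6349 per cell) remained at E12.0 and 12744 cells with 166191431 UMIs (median 13460.5) at E9.5. Their 2 sets of cells shared 44 barcodes. The labelled tissues carried their markers. The 7 epithelial markers summed to 2086 CPM at E12.0, where the 5 mesenchymal markers summed to 7.39 CPM, 2 of 3 endothelial markers and all 4 globin genes were at 0, and endothelial markers summed to 1.23 CPM. At E9.5 the epithelial markers summed to 1861 CPM in the epithelial gate and 81.7 CPM in the mesenchymal gate, and the mesenchymal markers to 36.4 and 1172 CPM.

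Zones of the E12.0 epithelium were defined by their gate genes. A zone holds every cell with a UMI of the transcription factor genes Lmx1b (920 cells), Irx1 (1617) or Dmrt2 (617), of the ligand genes Wnt9b (3388), Pthlh (1048) or Shh (467), or of both Ppl and Pkp1 (348), which encode the desmosomal proteins periplakin and plakophilin. Zones may overlap, since 1591 cells (14.0%) passed 2 or more gates and 536 of the Lmx1b cells were also in the Wnt9b zone, while 4731 cells passed none. Of 17 other genes listed as markers of these zones, 17 were above the remaining cells in their own zone and 14 were at least 2-fold higher, which was the case for neither Pthlh marker, Unc5c and Runx1, nor for the Dmrt2 marker Col14a1. Some of these markers, such as Gad1, Nebl and Col14a1, were named by the study from clusters of this same library. Their levels therefore describe the zones and are no independent check. Called doublets made up between 9.45% (Pthlh) and 14.4% (Ppl+Pkp1) of the cells of each zone and 2.94% of the ungated cells. 

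Each zone was compared with all kept cells that lack its gate, and a gene was called higher or lower where the fold was at least 2 after 5 CPM was added to both sides. Of the 28 folds of 4 connexins in 7 zones, 14 were called, and without doublets the number was also 14. All of them belonged to Gja1, Gjb2 or Gjb6. Background shares, over the 8789 to 9066 genes with at least 10 CPM in either group, show how rare a called gene was. The members were chosen with earlier results of these data known. The study itself used both Gjb2 and Gjb6 as anterior cluster markers from this library, Gjb6 for the ventral and Gjb2 for the lateral anterior epithelium. It also showed both in the tissue by in situ hybridization. These shares therefore describe how common calls were and do not test the members. In the Lmx1b zone 2 of the 4 connexins were higher, against 1.25% of all genes called in either direction. The Wnt9b zone had 2 higher against 1.2%. The Pthlh zone had none against 0.148%. The Irx1 zone had 2 lower against 1.16% and the Dmrt2 zone 2 lower against 1.83%. In the Shh zone 1 was higher and 2 were lower against 2.76%, and in the Ppl+Pkp1 zone 1 was higher and 2 were lower against 3.78%. No zone moved all 4 connexins.

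**Figure D1:**
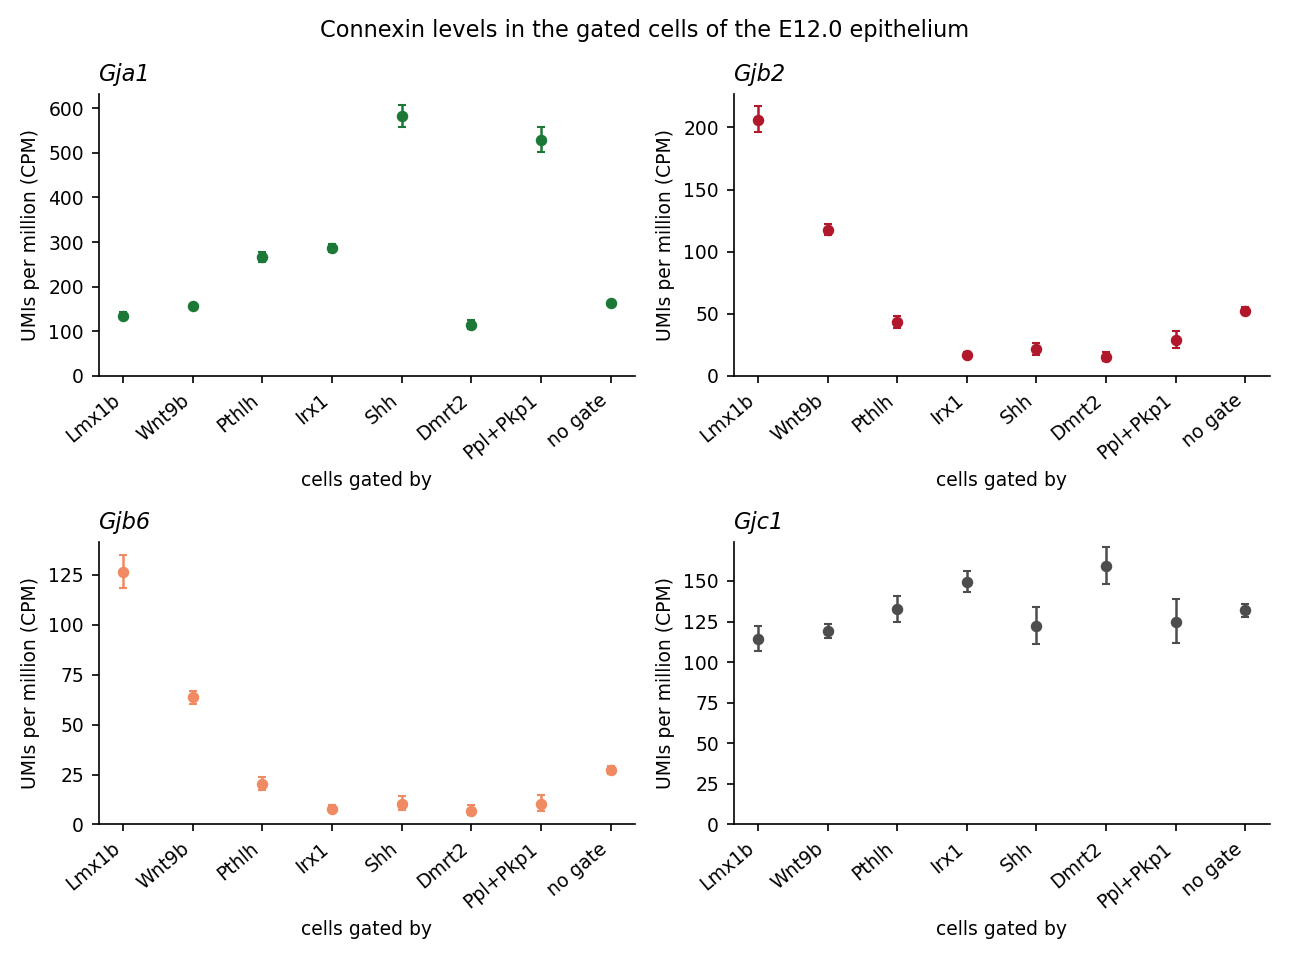
CPM of each connexin (y axes, each from 0) in the 7 gated zones and the ungated cells of the E12.0 library (x axes), with exact 95% Poisson intervals as bars. Gja1 stands highest in the Shh and Ppl+Pkp1 zones, Gjb2 and Gjb6 in the Lmx1b and Wnt9b zones, and Gjc1 varies least.

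Gjb2 and Gjb6 were high in the same zones. They are neighbours in the genome, Gjb2 (ENSMUSG00000046352) on chromosome 14 from 57098600 to 57104702 and Gjb6 (ENSMUSG00000040055) from 57123303 to 57133611, both on the reverse strand of GRCm38 and 18600 bases apart. Gja3, another connexin gene, lies 40499 bases on the other side of Gjb2. Gja1 (ENSMUSG00000050953) is on chromosome 10 from 56377330 to 56402513 on the forward strand, and Gjc1 (ENSMUSG00000034520) on chromosome 11 from 102799579 to 102819700 on the reverse strand.

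Because 2 neighbouring genes moved together, the 250 bases before their starts are shown with those of Gja1, whose levels took another course. RefSeq promoters on GRCm38 matched 3 of the 4 members. Each sequence is written 5′ to 3′ on the strand of its gene, and capitals mark motif matches: chr14:57104703-57104952 for Gjb2, chr14:57133612-57133861 for Gjb6 and chr10:56377050-56377299 for Gja1.
Gjb2: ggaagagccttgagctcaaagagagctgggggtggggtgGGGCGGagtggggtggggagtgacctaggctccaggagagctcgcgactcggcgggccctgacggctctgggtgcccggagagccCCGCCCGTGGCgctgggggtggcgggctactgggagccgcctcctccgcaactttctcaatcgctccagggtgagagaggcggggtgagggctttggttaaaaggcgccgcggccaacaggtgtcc
Gjb6: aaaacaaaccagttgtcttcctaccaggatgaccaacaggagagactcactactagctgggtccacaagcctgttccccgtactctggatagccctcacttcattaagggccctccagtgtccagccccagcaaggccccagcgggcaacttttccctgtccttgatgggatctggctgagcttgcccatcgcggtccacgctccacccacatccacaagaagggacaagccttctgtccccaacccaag
Gja1: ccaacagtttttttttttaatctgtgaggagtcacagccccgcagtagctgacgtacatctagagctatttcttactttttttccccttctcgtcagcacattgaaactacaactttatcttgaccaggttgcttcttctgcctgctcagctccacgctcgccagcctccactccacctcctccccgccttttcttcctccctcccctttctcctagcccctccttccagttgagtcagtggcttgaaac
GC content was 69.2% for Gjb2, with 18 CpG dinucleotides, 56.8% for Gjb6, with 5, and 50% for Gja1, with 6. The median over 32851 promoters was 52.4% with 6 CpG dinucleotides. The 6 motifs were searched on both strands. AP-2 (GCCNNNGGC) matched in the Gjb2 window from 124 to 116 bases before the start, and 13.7% of all promoters hold it. A GC box (GGGCGG, in 32.7% of promoters) matched there from 211 to 206 bases before the start and, on the other strand, from 126 to 121, where it overlaps the AP-2 match. TATAAA (in 12.4%), TAATTA (4.84%), TAATCC (6.25%) and CTTTGAT (3.21%) had no match in any of the 3 windows, and the Gjb6 and Gja1 windows held none of the 6. Thus the windows of the 2 neighbours shared no searched motif.

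Gjb2 was measured at 206 CPM (196 to 217) in the Lmx1b zone and 56.1 CPM in the cells without an Lmx1b UMI, a log2 fold of 1.88 (1.79 to 1.96). In the Wnt9b zone it stood at 118 CPM (113 to 122) against 46.8 CPM, a log2 fold of 1.33 (1.25 to 1.41). These were its highest zones. The Wnt9b call ended with a gate of at least 2 UMIs, where the log2 fold was 0.89, and in cells with exactly 1 gate, where it was 1.00034. It followed at 43.2 CPM (38.7 to 48.0) in the Pthlh zone, 28.8 CPM (22.7 to 36.1) in the Ppl+Pkp1 zone and 21.5 CPM (17.0 to 26.9) in the Shh zone. Its lowest levels were 16.9 CPM (14.7 to 19.2) in the Irx1 zone and 15.5 CPM (12.1 to 19.5) in the Dmrt2 zone. The Irx1 and Dmrt2 zones did not differ beyond counting error, with a ratio of 1.04 (0.798 to 1.38) over the cells they do not share. The highest zone was 13.3 times the lowest. Ungated cells, at 52.6 CPM, lay between the Wnt9b and Pthlh zones.

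Gjb6 was measured at 127 CPM (118 to 135) in the Lmx1b zone against 28.1 CPM in the other cells, which is a log2 fold of 2.17 (2.06 to 2.28). No member had a higher fold in any zone. The Wnt9b zone had 63.6 CPM (60.6 to 66.8) against 24.4 CPM, a log2 fold of 1.38 (1.28 to 1.49), which became 0.91 with a gate of at least 2 UMIs and 0.89 in cells with exactly 1 gate. Its order over the zones was that of Gjb2. It was 20.3 CPM (17.3 to 23.6) in the Pthlh zone and 10.2 CPM in both the Ppl+Pkp1 (6.75 to 14.9) and Shh (7.19 to 14.1) zones. The Irx1 zone had 7.86 CPM (6.42 to 9.52) and the Dmrt2 zone 6.78 CPM (4.64 to 9.58), and the interval of the ratio included 1 for the neighbours Ppl+Pkp1 and Shh as well as Irx1 and Dmrt2. The highest zone was 18.7 times the lowest. Over the 7 zones and the ungated cells, Pearson's r between Gjb2 and Gjb6 was 0.99 on log2(CPM + 5). These 8 groups come from 1 library and share cells, so this is a description.

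The share of mitochondrial UMIs moved with both genes. Gjb2 was at 32.0 CPM (29.8 to 34.4) in the 3254 cells with at most 5% mitochondrial UMIs and at 86.0 CPM (83.6 to 88.5) in the 8101 cells above it, and Gjb6 at 12.7 and 47.6 CPM. Medians per zone ran from 4.94% in the Dmrt2 zone to 5.87% in the Lmx1b zone. The Lmx1b zone was higher within each class. Gjb2 had log2 folds of 2.52 in the lower and 1.64 in the higher class, and Gjb6 of 2.62 and 1.94. One fold of Gjb2 turned. In the Ppl+Pkp1 zone it was 35.7 CPM against 31.9 CPM in the other cells of the lower class, where the zone had 113 cells, and 25.1 against 88.0 CPM in the higher class. Gjb6 lost its call there, at 11.9 against 12.8 CPM in the lower class. Among cells with Xist and no Y-linked UMI the log2 folds of Gjb2 were -0.50 in the Ppl+Pkp1 and -0.96 in the Shh zone, which ended both calls.

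Gate combinations that exclude each other, and exclude the Shh and Ppl+Pkp1 gates, gave a finer order. Gjb2 stood at 252 CPM (232 to 274) in cells with Lmx1b alone, 207 CPM (192 to 222) with Lmx1b and Wnt9b and 116 CPM (110 to 121) with Wnt9b alone. It was 52.5 CPM (43.0 to 63.5) with Wnt9b and Pthlh and 45.1 CPM (37.8 to 53.5) with Pthlh alone. The largest ratio between neighbouring classes with counts followed, since cells with Pthlh and Irx1 had 9.504 CPM (5.32 to 15.7). Irx1 alone had 8.53 CPM (6.60 to 10.9), with a ratio of 5.29 between Pthlh alone and Irx1 alone, and Dmrt2 alone had 8.97 CPM (6.18 to 12.6). Gjb6 was 58.5 CPM (54.9 to 62.3) with Wnt9b alone and 12.9 CPM (9.12 to 17.7) with Pthlh alone, a ratio of 4.54, while its ratio between Pthlh alone and Irx1 alone was 3.84. It ended at 3.36 CPM (2.20 to 4.92) with Irx1 alone and 3.26 CPM (1.69 to 5.70) with Dmrt2 alone. Neither gene had a UMI in the 21 cells with both Irx1 and Dmrt2, which allows up to 12.8 CPM.

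**Figure D2:**
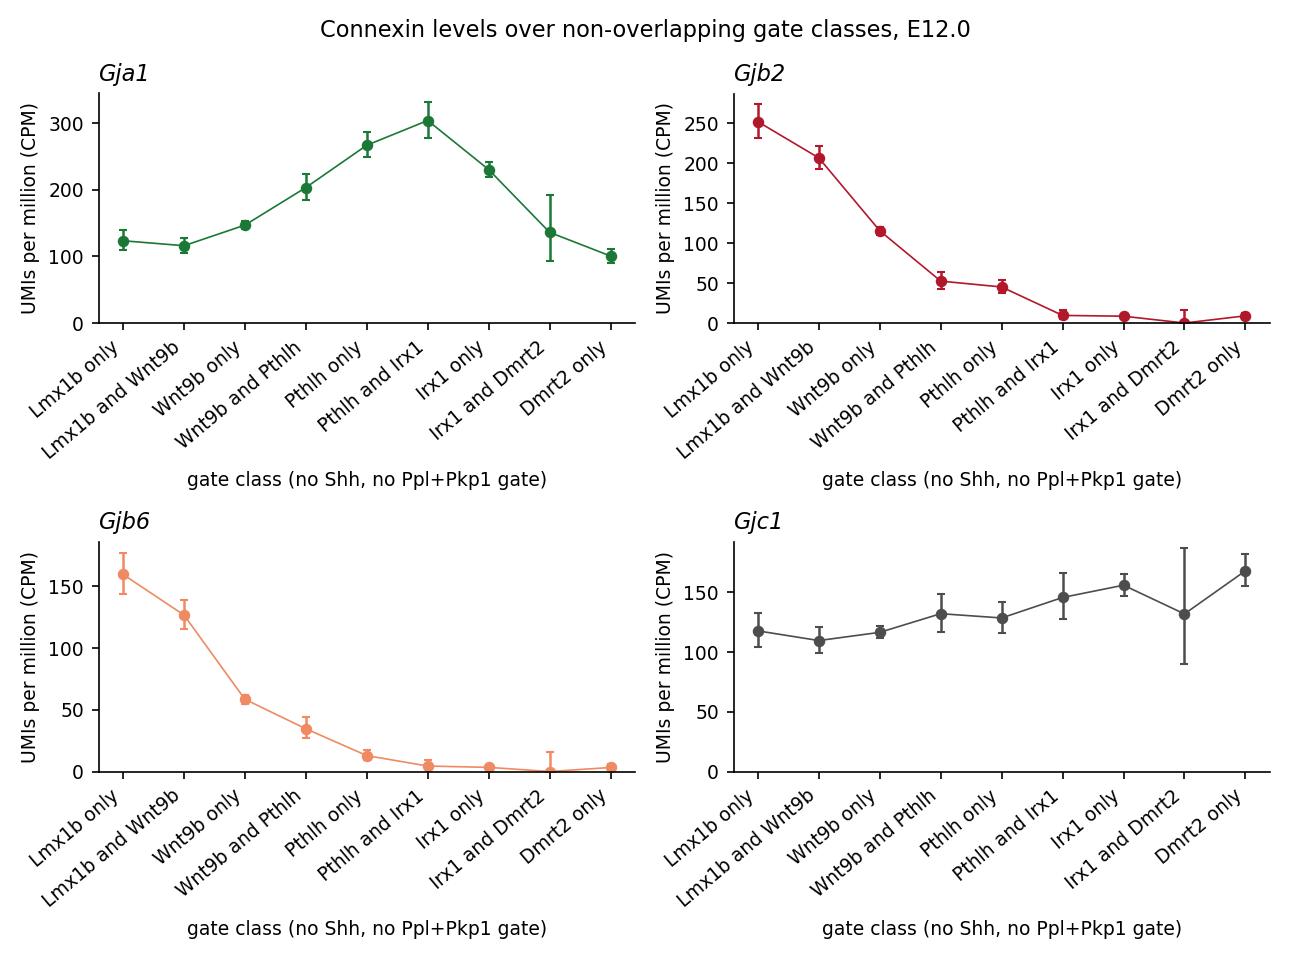
CPM of each connexin (y axes, from 0) in 9 non-overlapping classes of E12.0 cells ordered by gate (x axes), with exact 95% Poisson intervals as bars and lines joining the classes as a guide. Gjb2 and Gjb6 are highest at the Lmx1b end and near 0 at the Dmrt2 end, Gja1 peaks at 304 CPM in cells with Pthlh and Irx1, and Gjc1 stays between 109.7 and 168 CPM.

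The number of gate UMIs in a cell moved with the levels too. Gjb2 went from 56.1 CPM in cells with no Lmx1b UMI to 186 CPM (175 to 198) with 1 UMI, 282 CPM (254 to 312) with 2 and 281 CPM (211 to 366) with 3 or more, in 21 cells. Gjb6 was at 28.1, 118, 153 and 187 CPM (131 to 259). By Irx1 UMIs, in contrast, Gjb2 was at 80.8 CPM with 0, 22.7 CPM with 1, 11.9 CPM with 2 and 6.99 CPM (4.27 to 10.8) with 3 or more, and Gjb6 at 43.2, 11.4, 4.96 and 1.75 CPM (0.568 to 4.08). The measured levels of both genes thus fell at each step, but the intervals of the last 2 classes overlapped. With 2 Irx1 UMIs they were 8.34 to 16.5 CPM for Gjb2 and 2.78 to 8.18 CPM for Gjb6. By Wnt9b UMIs Gjb2 differed between 0 and 1 and was flat beyond, at 46.8 CPM with 0, 119.6 CPM with 1, 121 CPM with 2 and 107 CPM with 3 or more.

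**Figure D3:**
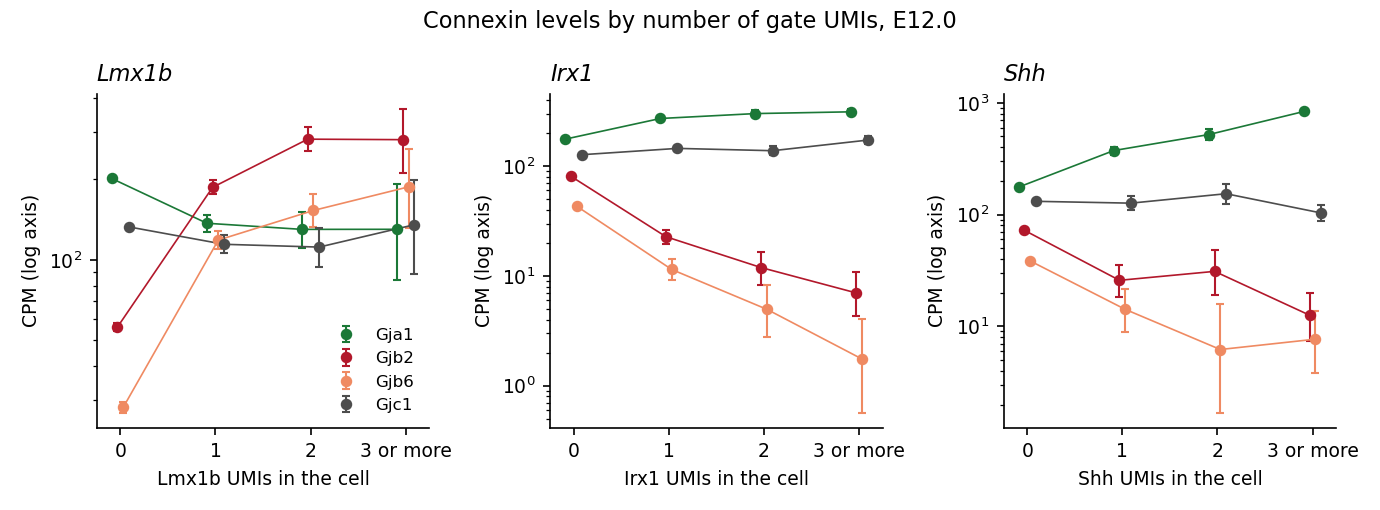
CPM of the 4 connexins (y axes, logarithmic) in E12.0 cells with 0, 1, 2 and 3 or more UMIs of Lmx1b, Irx1 or Shh (x axes), with exact 95% Poisson intervals as bars. Gjb2 is at 56.1, 186, 282 and 281 CPM by Lmx1b UMIs, Gjb2 and Gjb6 decrease with Irx1 UMIs, and Gja1 increases with Shh UMIs to 837 CPM.

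Gja1 had another pattern. It was highest in the Shh zone, the cells with a hedgehog ligand that marks tooth signalling centres and taste bud precursors, at 583 CPM (558 to 608) against 176 CPM in cells without Shh UMIs, which gives a log2 fold of 1.73 (1.66 to 1.79). The Ppl+Pkp1 zone followed at 529.6 CPM (502 to 558) against 183 CPM, a log2 fold of 1.53 (1.45 to 1.61). Over all kept cells both zones were called lower in Gjb2 and Gjb6. Some of these calls ended in the low mitochondrial class or in Xist cells, as given above. The Shh zone also held Foxa2, a gene of the tongue epithelium, at 12.4 CPM, which was at most 0.636 CPM in the other zones. Next came the Irx1 zone with 287 CPM (278 to 297), the Pthlh zone with 267 CPM (256 to 278) and the Wnt9b zone with 157 CPM (152 to 162). It was lowest in the Lmx1b zone, at 135 CPM (127 to 144), and the Dmrt2 zone, at 115 CPM (105 to 125). Among neighbours in this order, the ratio of Wnt9b to Lmx1b, 1.10 (0.997 to 1.23), was the one whose interval included 1. The Dmrt2 zone therefore had the lowest measured level of Gja1, Gjb2 and Gjb6 at once. Gja1 was not called lower there, at 115 CPM against 200 CPM in the other cells.

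Cells in both the Shh and Ppl+Pkp1 zones had the most Gja1, 1066 CPM (976 to 1162) in 59 cells. It was 508 CPM (483 to 533) in Shh cells without the Ppl+Pkp1 gate and 408 CPM (382 to 436) in Ppl+Pkp1 cells without Shh. The overlap thus exceeded either zone without it. Gja1 increased with Shh UMIs, from 176 CPM in cells with 0 to 374 CPM (344 to 405) with 1, 520.0 CPM (466 to 579) with 2 and 837 CPM (790 to 885) with 3 or more. Within the Ppl+Pkp1 zone it was 398 CPM (359 to 440) in the 112 cells with Tagln or Acta2, which encode contractile proteins, and 605 CPM (568 to 643) in the 236 without. Gjb2 did not separate these cells, at 29.2 and 28.6 CPM. It was 98.7 CPM (73.5 to 129.8) in the 47 Ppl+Pkp1 cells that also had Lmx1b or Wnt9b and 17.2 CPM (8.88 to 30.0) in the 77 with Irx1. These 47 cells had a median of 11250 UMIs and the 77 cells 8180, against 6791.5 in the whole zone. Whether they include doublets was not tested.

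Outside the Shh and Ppl+Pkp1 gates, Gja1 was highest in the middle of the ordered classes. It was 124 CPM (109 to 139) with Lmx1b alone, 147 CPM (141 to 153) with Wnt9b alone and 267 CPM (249 to 286) with Pthlh alone. The peak was 304 CPM (278 to 333) in the 185 cells with Pthlh and Irx1. Irx1 alone had 230.5 CPM (219.9 to 241) and Dmrt2 alone 101 CPM (90.6 to 111), a ratio of 2.29.

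Gjc1 was the most even member. Its zone levels ran from 114 CPM (107 to 122) with Lmx1b to 159 CPM (148 to 171) with Dmrt2, a ratio of 1.39, and no fold was called. The order was Dmrt2, Irx1, Pthlh, Ppl+Pkp1, Shh, Wnt9b and Lmx1b, and of the 6 steps the one from Irx1 to Pthlh, with a ratio of 1.17 (1.08 to 1.28), was the only one whose interval excluded 1. Over the 8 groups r between Gjc1 and Gjb2 was -0.75.

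Co-detection was counted in the 10439 E12.0 cells with enough UMIs, each thinned to 4000 UMIs so that depth was equal. A UMI of Gja1 was found in 46.1% of them, of Gjc1 in 38.8%, of Gjb2 in 16.3% and of Gjb6 in 11%. Without thinning these were 59.8%, 53.8%, 20.7% and 14.6%. The sorted library held no cell class that should lack connexins, and the lowest thinned shares among the 7 zones, in the Dmrt2 zone, were 3.60% for Gjb2 and 1.37% for Gjb6. Cells with 3 or more Irx1 UMIs had less, 1.60% and 0.641%. None of the 4 was found in 24.5% of cells, 1 in 45.0%, 2 in 25.0%, 3 in 4.78% and all 4 in 0.699%. In the Lmx1b zone 14.2% of cells held 3 and 2.62% held all 4, and in the Dmrt2 zone 0.685% held 3 and none held 4.

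Gjb2 and Gjb6 were found together in 674 cells where independent detection gives 187, a ratio of 3.60 (3.34 to 3.88). The ratio was 1.35 (1.2 to 1.52) within the Lmx1b zone, 2.12 (1.91 to 2.33) within the Wnt9b zone, 5.09 (3.58 to 7.0) within the Pthlh zone and 4.58 (3.99 to 5.23) among ungated cells. The ratio cannot exceed 1 divided by the larger single share, so its size is bounded by how common the genes are and is not compared between these groups. Leaving out called doublets gave 3.76, and the classes of at most 5% and above 5% mitochondrial UMIs gave 6.63 and 3.04. Gjb6 was found in 5.42% of cells with no Gjb2 UMI, 30.9% (28 to 33.9) with 1, 46.5% (41.4 to 51.6) with 2 and 57.9% (52.4 to 63.3) with 3 or more. In the Lmx1b zone 24.0% of cells had both, 23.2% Gjb2 alone, 13.5% Gjb6 alone and 39.2% neither. Each share has an exact Clopper-Pearson interval.

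The other 5 pairs stayed near or below 1. Gja1 with Gjb2 had a ratio of 0.826 (0.766 to 0.890) and Gja1 with Gjb6 of 0.801 (0.728 to 0.879). Within the Lmx1b zone they were 0.927 (0.792 to 1.08) and 0.939 (0.785 to 1.11). Gjb2 was found in 18.7% of cells with no Gja1 UMI and in 6.09% of cells with 3 or more. Gjc1 had ratios of 0.837 (0.771 to 0.908) with Gjb2, 0.821 (0.740 to 0.908) with Gjb6 and 1.01 (0.967 to 1.05) with Gja1. Detection of Gjc1 was 38.6% both with no Gja1 UMI and with 3 or more.

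**Figure D4:**
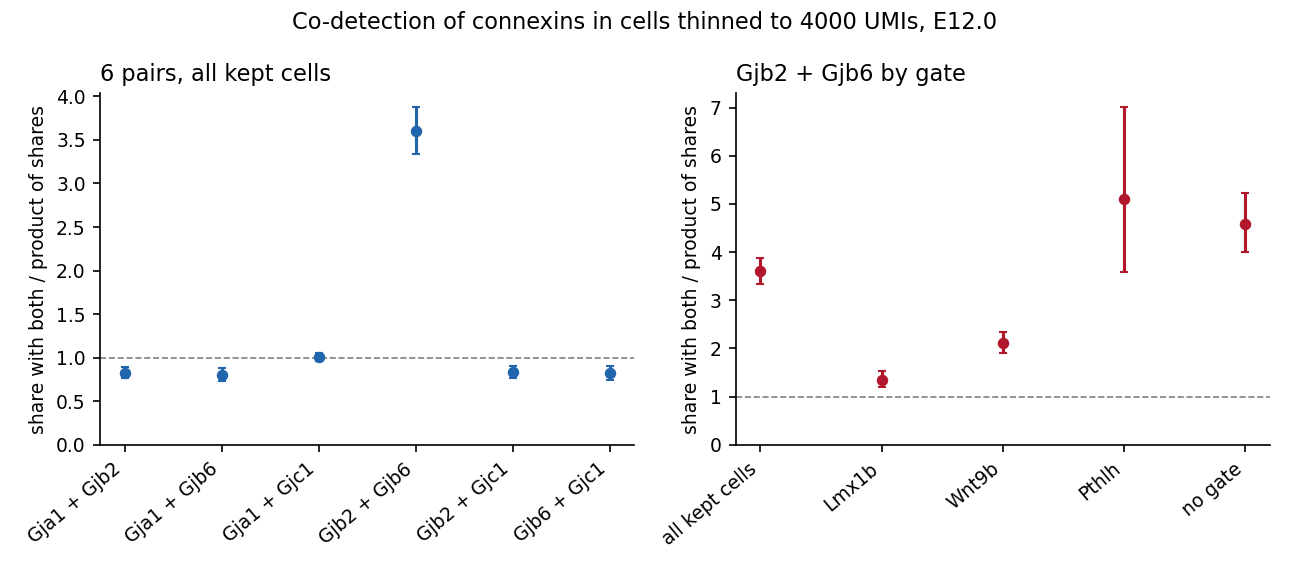
Share of cells with a UMI of both genes divided by the product of the single shares (y axes), for 6 pairs over all E12.0 cells (left) and for Gjb2 with Gjb6 by gate (right), in cells thinned to 4000 UMIs, with bars from the exact interval of the joint share. The dashed line at 1 is independent detection, and groups with fewer than 5 expected joint cells are not drawn.

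The UMI ratio of Gjb2 to Gjb6 was compared between groups of cells, where transcript length cancels. It was 1.88 (1.80 to 1.97) over all E12.0 cells, 1.63 (1.5 to 1.77) in the Lmx1b zone, 1.85 (1.74 to 1.97) in the Wnt9b zone and 2.13 (1.76 to 2.58) in the Pthlh zone. In the Ppl+Pkp1 zone it was 2.81 (1.79 to 4.54), and this interval and those of all cells and of ungated cells, 1.93 (1.772 to 2.11), lay above that of the Lmx1b zone, while the intervals of the other zones overlapped it. In the E9.5 epithelium the ratio was 9.49 (6.75 to 13.7), from 351 and 37 UMIs. Cells with Foxa2 or Pax1 are included there and held 126 and 11 of these UMIs. Library and gene list also differ from E12.0, so this ratio is a description and no measure of change with stage.

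At E9.5 a cell was gated as epithelial or mesenchymal by at least 3 UMIs of that marker list and few of the others. This gave 2784 and 5949 cells, with medians of 12633 and 15902 UMIs. Another 3463 kept cells were in no E9.5 gate and were shallower, with a median of 6208 UMIs. The comparison asks which connexins the layers of the arch share. Of the 4 members 1, Gjb2, was called higher in the epithelium, against 9.69% of all 8289 genes compared called in either direction. Gja1 was measured at 166 CPM (161 to 170) in the epithelium and 158 CPM (155 to 160) in the mesenchyme, a log2 fold of 0.07 (0.03 to 0.11). Gjc1 was 106 CPM in both (102 to 109 and 104 to 108), a log2 fold of -0.01 (-0.06 to 0.05). Both genes were therefore present in both layers at like levels. Gja1 parted in 1 subset. Among cells with no UMI of the cell cycle genes Top2a, Mki67 and Cenpf, 50 epithelial and 114 mesenchymal, it was 108 CPM (76.6 to 149) against 30.5 CPM (17.1 to 50.4). These levels rest on 38 and 15 UMIs. Cells with such a UMI were 2734 epithelial and 5835 mesenchymal, at 166 and 158 CPM. Shallow cells can lack these UMIs through depth alone, and the depth of the subset was not compared. The mesenchymal level of the subset was near the 27.2 CPM (18.9 to 38.1) of globin-rich blood cells in the same library.

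Gjb2 was at 9.64 CPM (8.66 to 10.7) in the E9.5 epithelium and 0.367 CPM (0.254 to 0.513) in the mesenchyme, 26.2 times as much. Among cells with no Top2a, Mki67 or Cenpf UMI, 50 epithelial and 114 mesenchymal, the counts were 4 and 2 UMIs, with a log2 fold of 1.49 (-1.32 to 4.95). Gjb6 had 37 UMIs in the epithelium, 1.02 CPM (0.715 to 1.40), and 3 in the mesenchyme, a ratio of 31.3 (9.92 to 159). With so little of it the fold was not called. Free RNA was judged from the 78 globin-rich cells, blood cells that should lack these genes, with a median of 17029 UMIs. Gjb2 had a UMI in 3.85% of them, and in 9.41% of epithelial cells (median 12633 UMIs) and 0.504% of mesenchymal cells (median 15902 UMIs), so the mesenchymal share is read as background. After thinning to 4000 UMIs the shares were 3.17% (2 of 63 globin-rich cells), 3.64% and 0.142%, and the epithelial share was no longer clearly above the globin-rich share. The level in globin-rich cells was 2.40 CPM (0.496 to 7.02), below the epithelial interval. Gja1 was found in 19.2% of globin-rich cells at 27.2 CPM and in 78.6% of both epithelial and mesenchymal cells, and Gjc1 in 16.7%, 69.6% and 73.8%. Their thinned shares in epithelium and mesenchyme were 43.9% and 43.0% for Gja1 and 34.2% and 34.3% for Gjc1.

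Within the E9.5 epithelium the level of Gjb2 was highest in the 264 cells with Pax1, a transcription factor gene of the pharyngeal pouch endoderm. It was 33.4 CPM (27.8 to 39.8) there and 1.37 CPM (0.283 to 4.00), from 3 UMIs, in the 162 cells with Foxa2 and no Pax1. The 2358 epithelial cells with neither had 7.37 CPM (6.43 to 8.39). They held 225 of the 351 Gjb2 UMIs of the epithelium, and the Pax1 cells 123. A Gjb2 UMI was found in 28.4% of the Pax1 cells, 1.85% of the Foxa2 cells and 7.80% of the rest, and after thinning in 9.96%, 0.621% and 3.14%. The share in the Foxa2 cells was below that in globin-rich cells and is read as background. Gjb6 had 9, 2 and 26 UMIs in these groups. Gja1 had another order, at 126 CPM (115 to 138) in the Pax1 cells, 161 CPM (145 to 179) in the Foxa2 cells and 171 CPM (166 to 175) in the rest, and Gjc1 was at 105, 116 and 105 CPM.

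Among the cells without Foxa2 and Pax1, Gja1 was 186 CPM (180.0 to 193) in the 1208 cells with the cofactor gene Vgll2 and 149 CPM (142 to 156) in the 1150 without. Gjb2 was 6.96 and 7.94 CPM there, with overlapping intervals. In the mesenchyme the 308 cells with the muscle progenitor genes Tcf21, Msc or Myf5 had less Gja1, 118 CPM (109 to 127), and more Gjc1, 127 CPM (117 to 137), than the mesenchyme as a whole. The 470 endothelial cells had 84.0 CPM of Gja1 (77.5 to 91.0) and 82.1 CPM of Gjc1 (75.6 to 89.0), both below the mesenchyme. Their gate set no limit on mesenchymal markers, and 54.7% of them had a UMI of Twist1, so mixed cells may be included.

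**Figure D5:**
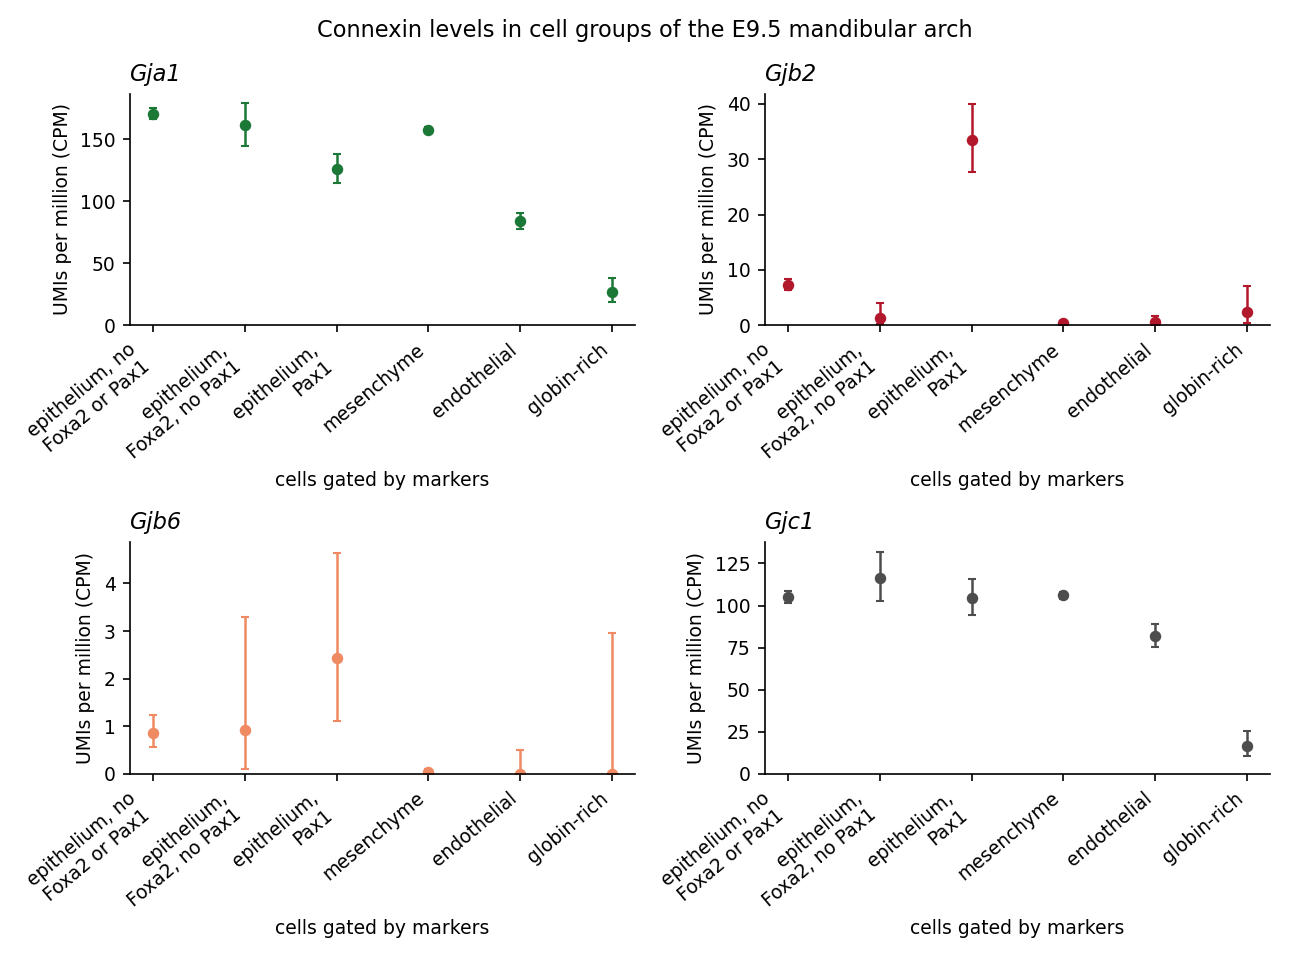
CPM of each connexin (y axes, each from 0) in 6 marker-gated groups of E9.5 cells (x axes), with exact 95% Poisson intervals as bars. Gjb2 stands out in epithelial cells with Pax1 at 33.4 CPM, Gja1 and Gjc1 are alike in epithelium and mesenchyme, and Gjb6 stays at or below 2.44 CPM.

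Between the stages, the E12.0 epithelium was set beside the E9.5 epithelial cells without Foxa2 and Pax1. Stage, sort, library and gene list differ together and cannot be told apart, and over all genes compared the median log2 ratio was 0.18. Of the 4 members 2 were called higher at E12.0, against 18.8% of all genes called in either direction. Gjb2 was 70.0 CPM against 7.37 CPM, a log2 ratio of 3.25 (3.06 to 3.45). Gjb6 was 37.2 CPM (35.9 to 38.6) against 0.851 CPM (0.556 to 1.25), a log2 ratio of 5.45 (4.90 to 6.07) that rests on 26 UMIs at E9.5. Mitochondrial shares differed too, with a median of 5.50% at E12.0 and 1.54% at E9.5 over all kept cells. In E12.0 cells with at most 5%, Gjb2 was at 32.0 CPM and Gjb6 at 12.7 CPM, lower but still above E9.5. The stage ratios were not run within a mitochondrial class. The 78 globin-rich cells set only wide limits on free RNA, near the E9.5 level of Gjb2 and above that of Gjb6. They held 2.40 CPM (0.496 to 7.02) of Gjb2 and 0 UMIs of Gjb6, which allows up to 2.40 CPM. The 5949 mesenchymal cells of the same library held less, 0.367 CPM (0.254 to 0.513) of Gjb2 and 0.0324 CPM (0.00669 to 0.0948) of Gjb6. The thinned Gjb2 share of the E9.5 epithelial cells compared, 3.14%, was no higher than the 3.17% of 63 globin-rich cells. It was above the 0.142% of the mesenchyme. The part of free RNA in the stage ratios was not tested. Gja1, at 195 and 171 CPM, and Gjc1, at 131 and 105 CPM, differed far less, by log2 ratios of 0.19 (0.15 to 0.24) and 0.32 (0.26 to 0.38), near the median of all genes. The pair that varied most between zones also differed most between stages.

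Of the other connexin genes, Gja3, which lies next to Gjb2, encodes a connexin best known from the lens. It was at 2.12 CPM over all E12.0 cells, with 3.75 CPM in the Lmx1b, 3.46 CPM in the Wnt9b and 0.907 CPM in the Irx1 zone. Its log2 fold in the Wnt9b zone, 1.24 (0.78 to 1.70), had the sign of its neighbours but its low level kept it from a call.

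Endothelial cells of the E9.5 arch held the vascular connexins. Gja4 was 49.97 CPM there and 0.346 CPM in the mesenchyme, and Gja5 16.5 CPM (13.6 to 19.7) and 0.0757 CPM. The pannexins, which form channels without docking, gave no call in any zone or layer among 3 genes, with Panx1 at 20.5 CPM at E12.0 and 21.7 CPM in the E9.5 epithelial cells without Foxa2 and Pax1. Tjp1, which encodes a scaffold that binds connexins at the junction, was called higher in the E9.5 epithelium than in the mesenchyme, at 169.5 against 65.9 CPM. Cnst, which encodes the connexin-trafficking receptor consortin, was 39.4 CPM at E12.0 and 7.89 CPM at E9.5, a called log2 ratio of 2.32 (2.13 to 2.52).

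For each member, the genes with the most similar zone pattern were sought by Pearson's r of log2(CPM + 5) over the same 8 groups among 4484 genes. Maf, a transcription factor gene, was most like Gja1 (r = 0.99), at 69.0 CPM in the Shh and 69.4 CPM in the Ppl+Pkp1 zone and 7.78 to 27.4 CPM elsewhere. The cell cycle inhibitor gene Cdkn1a and the hyaluronan receptor gene Cd44 followed, both with r of 0.98. Gjb2 was most like Gjb6, before Dnajc1 and Hdgf, and Gjb6 was most like Gjb2, before Hdgf and Txndc17, all with r of 0.99. Hdgf ranged from 567 to 636 CPM, so a high r does not mean a like size of change. Gjc1 was most like Bag4 and Hist1h1c, with r of 0.98, and Mrpl28, with r of 0.97.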

How the data were processed

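The authors deposited 1 matrix of raw UMI counts, genes by cell barcodes, for each stage, made with Cell Ranger on GRCm38 (mm10) from 10x Genomics 3′ v3 libraries. Cell Ranger 2.0.0 is named in their processing notes, while the matrix headers give 3.1.0 for E12.0 and 6.1.2 for E9.5. Cells with 200 to 5500 genes and at most 10% mitochondrial UMIs were kept, as in the methods of the study. This left 11355 of 11663 barcodes at E12.0 and 12744 of 14293 at E9.5. Scrublet in scanpy 1.11.5 called 661 (5.82%) and 331 (2.60%) of them doublets, which were kept in the main values.

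Zones at E12.0 were gated by 1 UMI of the gate gene. At E9.5 a cell was epithelial or mesenchymal with at least 3 UMIs of its marker list and few of the others, and globin-rich with at least 5% globin UMIs. An endothelial cell had at least 3 UMIs of its list and at most 1 of Epcam and Cdh1, with no limit on mesenchymal markers. Counts were summed per group and given as CPM with exact 95% Poisson intervals (scipy 1.17.1), folds with exact conditional binomial intervals and shares with Clopper-Pearson intervals. A fold was called at 2 or more with 5 CPM added, and background shares cover genes with at least 10 CPM in either group. A group with 0 counts was given the limit of 3 counts. For co-detection each cell was thinned to 4000 UMIs (seed 1) and shallower cells were left out. The scripts were tested on simulated data.

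The members and gene lists were chosen with earlier results of these data known. Named genes are the 4 members, other connexins, pannexins, the partners Tjp1 and Cnst, the gate and marker genes, and the 3 genes most like each member. Alternatives changed gates, cell filters, doublets, weighting, depth, embryo sex, cell cycle, cutoffs and low-value filters, and 1 of them, cells with over 5% mitochondrial UMIs, was chosen after seeing the data. Results for some listed genes are not reported here.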

Additional observations from a re-analysis of the deposited data

How the results depend on the processing

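No paired analysis was possible because there is 1 library per stage, and no replicate could be left out. The 14 called folds ranged from 12 (cells with Xist and no Y-linked UMI) to 18 (a cutoff of 1.5). The log2 fold of Gjb2 in the Lmx1b zone, 1.88, was 2.10 with a gate of 2 UMIs, 2.52 with at most 5% mitochondrial UMIs, 1.64 above 5%, 2.06 without doublets, 1.79 in Xist cells and 1.60 in cells with no Top2a, Mki67 or Cenpf UMI. For Gjb6 there, 2.17, these were 2.62 with at most 5%, 1.94 above 5%, 2.33 without doublets, 2.35 in Xist cells, 2.00 in Y-linked cells and 1.96 without cell cycle UMIs. The Gjb2 with Gjb6 co-detection ratio, 3.60, was 6.63 at most 5%, 3.04 above 5%, 4.10 in Xist cells, 3.23 in Y-linked cells, 2.83 without cell cycle UMIs, 3.33 without thinning and 5.72 with 2 UMIs of each gene. It was not run under other gates or weights.

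The Gja1 log2 fold of epithelium over mesenchyme at E9.5, 0.07, was 0.15 in Xist cells, -0.066 in Y-linked cells, 1.83 without cell cycle UMIs, 0.15 with equal cell weights and 0.21 gated by Epcam alone. That of Gjc1, -0.01, was 0.084 with equal weights, and that of Gjb2, 4.71, ranged from 1.49 (without cell cycle UMIs, 4 and 2 UMIs) to 5.08. The stage log2 ratio of Gjb2, 3.25, was 2.86 against all E9.5 epithelium, and that of Gjc1, 0.32, was 0.22 after thinning. The fold of Gjb2 in the Ppl+Pkp1 zone turned to 0.16 with at most 5% mitochondrial UMIs. Of 308 alternative zone folds, 10 changed direction, 9 of them of Gjc1, whose folds were small throughout. The causes were not tested.

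With at least 50 CPM in place of 10, the genes past 2-fold numbered 49 in place of 110 (Lmx1b), 42 of 106 (Wnt9b), 4 of 13 (Pthlh), 48 of 103 (Irx1), 111 of 247 (Shh), 78 of 163 (Dmrt2), 157 of 343 (Ppl+Pkp1), 266 of 803 (E9.5) and 841 of 1710 (stage). Fewer genes were tested there. The shares called were 1.25% (Lmx1b), 1.08% (Wnt9b), 0.103% (Pthlh), 1.21% (Irx1), 2.76% (Shh), 1.95% (Dmrt2), 3.81% (Ppl+Pkp1), 7.45% (E9.5) and 19.9% (stage). Gjb6 at E9.5 rests on 37 epithelial UMIs.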
